A study of Mus musculus with 5 samples.

Results

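The genes of oxidative phosphorylation were followed in mouse embryonic stem cells with and without C3G, a guanine nucleotide exchange factor encoded by Rapgef1. Members were taken by name: protein-coding genes for the subunits of NADH dehydrogenase (Ndufa, Ndufb, Ndufc, Ndufs and Ndufv genes), succinate dehydrogenase (Sdha to Sdhd), cytochrome bc1 (Uqcr genes), the nuclear cytochrome c oxidase subunits (Cox4 to Cox8 genes), ATP synthase (Atp5 genes) and every gene of the mitochondrial DNA, with Ndufa4l2 left out. This rule found 96 of 21952 protein-coding gene symbols, 83 of them nuclear and 13 mitochondrial. WT was the E14Tg2a parent line, with 3 samples, and C3G null was E14Tg2a made C3G-/-, with 2 samples. In the null cells an EF1α-puromycin cassette stands in for exons 2 to 4 of Rapgef1, and transcripts from the C-terminal exons remain. The labels do not say which knockout clone each null sample came from, and the controls here are the parent cells and not cells that had received the vector. Both groups grew on gelatin in GMEM with serum and LIF, without treatment. Total RNA was sequenced. The study describes the samples of each group as independent, without saying whether they were separate cultures or clones. The p-values below rest on the spread between these samples, in part or wholly pooled over genes. That spread may be technical in part.

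Oxidative phosphorylation is carried out by 5 multisubunit complexes of the inner mitochondrial membrane. Complexes I and II take electrons from NADH and succinate and pass them to coenzyme Q, complex III hands them on to cytochrome c, and complex IV gives them to oxygen. Complexes I, III and IV pump protons as they do so, and complex V, the ATP synthase, lets the protons back in to make ATP. Complex II is built from nuclear genes alone, whereas the other complexes combine many small nuclear subunits with a few core subunits made inside the organelle from mitochondrial DNA. Pluripotent stem cells are known for drawing much of their ATP from glycolysis, with oxidative phosphorylation gaining weight on differentiation.

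The values were TPM, transcript abundances corrected for length and set to the same total in every sample. They were summed over the transcripts of a gene, and they keep no read depth. Protein-coding genes held 28.8 to 31.8% of all TPM in WT and 18.6 and 26.0% in the null samples, while small non-coding RNAs held 56.1 to 61.9% and 73.2 and 62.3%. A protein-coding gene therefore had a smaller part of the total to begin with in null cells, and the first null sample stood apart in this. For this reason each result is given on 2 scales, on TPM as deposited and on scaled TPM. The latter come from median-of-ratios scaling, in which each sample is divided by the median ratio of its genes to their geometric mean over samples. The scaling moved the median log2 fold change of the 12518 tested genes from -0.55 to 0.01. Rapgef1 itself was 11.6, 10.3 and 9.64 TPM in WT and 3.92 and 5.55 TPM in null cells, and the groups did not overlap (log2 fold change -1.02 ± 0.25, SE, adjusted p = 0.000304 as deposited; -0.41 ± 0.06, adjusted p = 0.00444 after scaling). The remaining RNA includes exons outside the deleted part. The 8 markers of embryonic stem cells summed to 2223 to 2345 TPM in WT and to 1771 and 2311 TPM in null cells. Those of 7 other cell types summed to at most 16.3 TPM in WT and 6.75 TPM in null cells, with Tnp1 and Pgk2, markers of testis germ cells, at 0. These sums are of TPM as deposited, on which the median log2 fold change of tested genes was -0.55, and were not taken after scaling. As deposited, the marker sums of trophectoderm, mesoderm, neural cells, fibroblasts and muscle were lower in both null samples than in any WT sample. All 4 muscle markers were under 1 TPM in every sample. The part of these cell types in the results was not tested. In bulk RNA, fewer cells of a type and less RNA per cell cannot be told apart.

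As deposited, most oxidative phosphorylation genes did not pass the test. Of the 91 members tested, 13 were lower in null cells and 1 was higher (limma on log2(TPM + 1), Benjamini-Hochberg adjusted p under 0.05 over all genes tested). Among all tested genes 56.8% were lower and 1.45% were higher, and the share of members called lower was 14.3%. That share was near the 16.6% lower among 386 other protein-coding genes shorter than 1000 bases and with a mean of at least 20 TPM. The median log2 fold change was -0.33 over members and -0.55 over all tested genes. These 13 calls moved with single samples, and none of the 14 calls held in all 5 fits that left out 1 sample. The number of lower members was 1, 0 and 5 without WT sample 1, 2 and 3, and 2 and 69 without null sample 1 and 2. The single higher call, mt-Co2, is taken up with the mitochondrial genes. In the fit of all 5 samples on this scale, the spread given to a gene followed its level and was pooled over all genes. Cox6b1 and Cox7c thus had the same SE, 0.28, with SDs over the WT samples of 0.77 and 24.4 TPM.

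After median-of-ratios scaling there were 38 members higher in null cells and 0 lower (limma; 0 members were also lower with an unadjusted p under 0.05), and all 38 were nuclear genes. This was 41.8% of the members, and of all tested genes 14.1% were higher and 16.6% were lower on this scale. The median log2 fold change was 0.34 over the 91 members, 0.39 over the 78 nuclear members and 0.23 over the 13 mitochondria-encoded genes. In 65 members both null samples lay above all WT samples, against 29.5% of all tested genes, and in 2 members, Ndufa13 and mt-Nd4l, both lay below, against 29.3%. The count of 38 fell to 17 without WT sample 2, and it was 30 and 40 without WT samples 1 and 3. Higher calls over all 12518 tested genes were 891 without WT sample 2 and 1208 and 1536 without WT samples 1 and 3. With all 5 samples they were 1760. Fewer members were also called without null sample 1 or 2, fits that leave 1 sample in that group. No member passed the test in the same direction on both scales.

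Both other scalings gave smaller differences. With each sample set to the same sum of nuclear protein-coding TPM, 19 members were higher and 3 lower, with a median of 0.13, beside 708 higher and 3745 lower among all tested genes, whose median was then -0.17. Quantile normalization gave 15 higher and 8 lower members and a median of 0.15. Over all 12518 tested genes it gave 1608 higher and 1832 lower, with a median of 0.02. After a smooth trend on transcript length and GC content was subtracted, 26 members were higher and 2 lower, with a median of 0.22. Of all tested genes 2093 were then higher and 1772 lower, with a median of 0.03. The median transcript length was 695 bases over members and 2186 bases over all tested genes. The part of length in the result was not tested. Other protein-coding genes shorter than 1000 bases and with a mean of at least 20 TPM, 386 genes, had a median log2 fold change of -0.33 as deposited and 0.35 after scaling, and 35.5% of them were higher after scaling. These medians were near those of the members, -0.33 and 0.34.

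**Figure D1:**
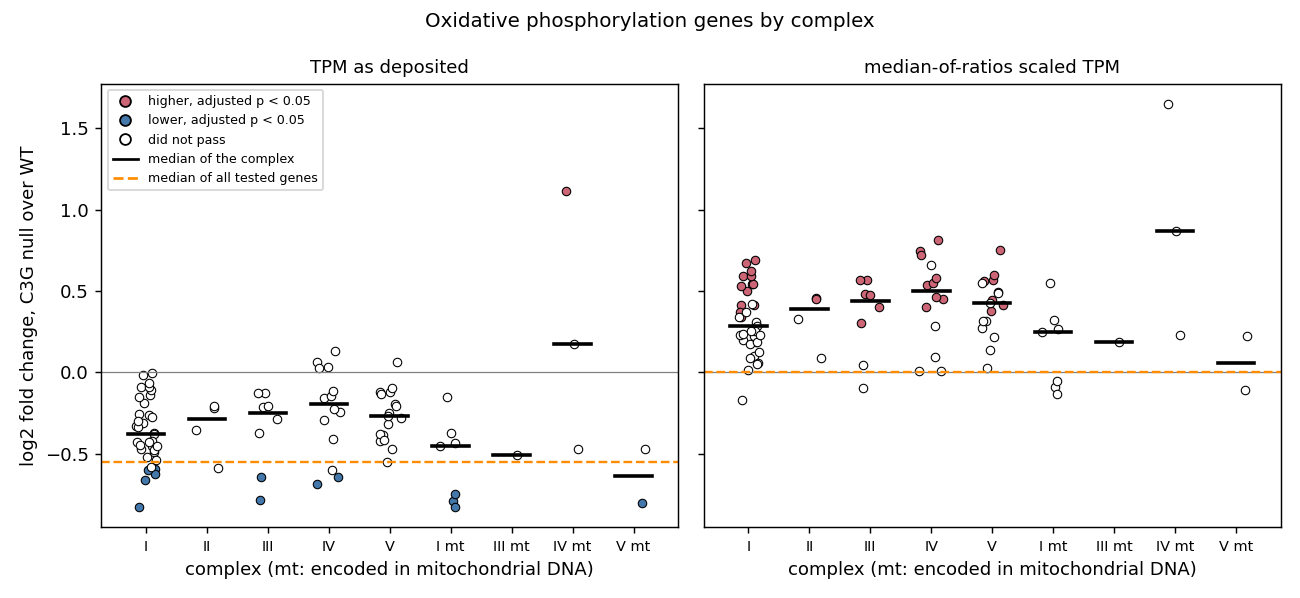
Log2 fold change of each tested member (C3G null over WT) by complex, on TPM as deposited (left) and after median-of-ratios scaling (right). Each point is a gene, filled where the adjusted p was under 0.05, black bars are medians of each complex and the dashed line is the median of all tested genes; all 5 nuclear medians lie above that line in both panels, between 0.29 and 0.50 after scaling.

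A set of 6 calls was kept throughout. Atp5c1, Cox7a2, Cox7a2l, Ndufb4, Ndufb9 and Sdhc were higher after median-of-ratios scaling and kept that call in all 16 alternative fits, which included the other scalings and each sample left out. As deposited none of these 6 genes passed the test. Ndufb4 was singled out after its values were seen. Each complex had higher calls among its nuclear subunits after scaling: 13 of 35 passed in complex I, 2 of 4 in complex II, 6 of 8 in complex III, 9 of 14 in complex IV and 8 of 17 in complex V. Of all tested genes 14.1% were higher. After the length and GC correction the counts for complexes I to V were 10, 2, 1, 6 and 7, with 1 lower in complex IV. Of all 12518 tested genes 2093 were higher and 1772 lower in that fit. With nuclear protein-coding TPM set equal the counts for complexes I to V were 7, 2, 0, 6 and 4, with 1 lower in complex I and 1 in complex III. All tested genes then had 708 higher and 3745 lower.

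Complex I, the entry point for electrons from NADH, had the smallest median of the nuclear sets, -0.38 as deposited and 0.29 after scaling. Ndufa7, an accessory subunit, was at 85.0, 99.1 and 106 scaled TPM in WT and at 171 and 142 scaled TPM in null cells. The groups did not overlap, and the scaled log2 fold change was 0.69 ± 0.13 (SE, adjusted p = 0.0120), although without null sample 1 the adjusted p was 0.0609. Ndufb9, an accessory subunit of the membrane arm, was at 48.9, 56.3 and 56.9 scaled TPM in WT and at 88.0 and 84.8 scaled TPM in null cells, a change of 0.67 ± 0.09 (SE, adjusted p = 0.00400). As deposited both genes were almost level, with log2 fold changes of 0.00 for Ndufa7 and -0.02 for Ndufb9. Ndufb4, another membrane-arm subunit, had 12.2, 12.6 and 13.3 scaled TPM in WT and 19.5 and 18.4 in null cells (0.55 ± 0.07, SE, adjusted p = 0.00274). Its processed pseudogene Ndufb4c matched it over all 390 bases and was itself listed at 29.7 to 42.0 TPM as deposited, above Ndufb4 with 12.04 to 16.7 TPM, so the split of reads between the pair is uncertain.

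At the other end of the nuclear complex I genes stood Ndufa13, also known as GRIM-19. Its levels were 26.7, 25.7 and 26.0 TPM in WT and 11.6 and 17.5 TPM in null cells as deposited, without overlap (-0.83 ± 0.26, SE, adjusted p = 0.00633). The adjusted p rose to 0.0842 and 0.0985 without WT sample 1 and 2. After scaling its null samples were still the lower ones, at 18.7 and 19.3 against 20.01 to 23.5, but the difference of -0.17 ± 0.08 (SE) did not pass (adjusted p = 0.181). With samples set to the same sum of nuclear protein-coding TPM, Ndufa13 was called lower at -0.38. Ndufb2 had the next smallest scaled fold change of these nuclear genes, 0.02 ± 0.10 (SE), with overlapping groups. Among the nuclear genes of complex I, lower calls as deposited went to Ndufa13, Ndufb2, Ndufb6, Ndufa8 and Ndufs4, with log2 fold changes between -0.83 and -0.59. All but that of Ndufa13 were kept in 1 of the 5 leave-one-out fits, that without null sample 2, and Ndufb6, Ndufa8 and Ndufs4 are named for these calls, after their values were seen. Ndufs4 is an accessory subunit of the matrix arm that mouse models of Leigh syndrome lack. Transcripts annotated as coding held only 22.9 to 24.5% of its TPM over the 5 samples.

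Complex II, which is also the succinate dehydrogenase of the citric acid cycle, split by subunit. Sdhc, one of the membrane anchors, was at 15.6, 16.0 and 16.6 scaled TPM in WT and at 22.7 and 21.99 in null cells. These groups were well apart, and the change of 0.45 ± 0.06 (SE, adjusted p = 0.00410) passed in every fit after scaling. Sdhb, the iron-sulfur subunit, went from 25.8 to 30.6 scaled TPM over the WT samples to 40.7 and 37.1 in null cells (0.46 ± 0.09, SE, adjusted p = 0.0149), with adjusted p of 0.0592 and 0.0727 without WT sample 2 and null sample 1. Sdhd, the other anchor, was 0.33 ± 0.11 (SE, adjusted p = 0.0642). Sdha, the flavoprotein that oxidizes succinate, overlapped between groups, with 31.2 to 34.2 scaled TPM in WT and 32.1 and 38.1 in null cells.

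In complex III the small subunits Uqcr10 and Uqcr11 had the largest scaled fold changes. Uqcr10 was at 60.5, 77.8 and 84.2 scaled TPM in WT and at 119 and 100.1 in null cells (0.57 ± 0.16, SE, adjusted p = 0.0416). Uqcr11 was at 60.1, 75.2 and 84.8 in WT and at 116 and 100.3 in null cells (0.56 ± 0.16, SE, adjusted p = 0.0398). The null samples were the highest in both, yet the WT samples were spread widely, and of the 5 leave-one-out fits each gene kept its call in 1, that without WT sample 3. The largest adjusted p was 0.180 for Uqcr10 and 0.171 for Uqcr11, both without null sample 1. Uqcrb, which lies at the coenzyme Q site, was at 105, 113 and 95.4 TPM in WT and at 48.4 and 74.5 TPM in null cells as deposited (-0.78 ± 0.28, SE, adjusted p = 0.0134), a call that was kept in 1 of 5 leave-one-out fits. Its scaled levels overlapped, 78.3 to 92.9 against 78.2 and 82.2. Uqcrb was called lower under quantile normalization, at -0.34, and with nuclear protein-coding TPM set equal, at -0.31. The core protein Uqcrc1 was likewise called lower as deposited (-0.64 ± 0.28, SE, adjusted p = 0.0374) and was level after scaling (0.04 ± 0.09, SE).

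Complex IV, cytochrome c oxidase, had the largest nuclear median, -0.19 as deposited and 0.50 after scaling. Ndufa4 was counted here because its protein is now regarded as a cytochrome c oxidase subunit. Cox7a2, the widely expressed form of subunit VIIa, was at 25.6, 33.0 and 32.2 scaled TPM in WT and at 56.3 and 51.2 in null cells. That was the largest scaled fold change of any nuclear member, 0.82 ± 0.12 (SE, adjusted p = 0.00552), and the groups were far apart. Cox7a2l, which helps to join complexes III and IV into supercomplexes, was at 34.2, 38.7 and 43.1 in WT and at 68.4 and 62.4 in null cells (0.75 ± 0.11, SE, adjusted p = 0.00498). Here too a pseudogene, Gm6969, 98.0% identical over 342 bases, was listed at about the level of the gene itself, 43.7 to 58.4 TPM as deposited, so the Cox7a2l values depend on how shared reads were assigned. No near-identical annotated copy was found for Cox7a2, Sdhc or Ndufb9.

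Cox5b and Cox6b2 stood lowest in complex IV. Cox5b, a structural subunit, was at 122, 126 and 115 TPM in WT and at 61.95 and 90.02 TPM in null cells as deposited (-0.69 ± 0.28, SE, adjusted p = 0.0287), and at 91.1 to 104 against 100.1 and 99.4 after scaling, a difference of 0.01 ± 0.09 (SE). The deposited call was lost in 4 of 5 leave-one-out fits, all but that without null sample 2, with adjusted p up to 0.192. Both genes were thus below the other oxidase subunits in fold change on either scale, while their scaled levels did not separate the groups. Under quantile normalization Cox5b was called lower, at -0.30. Transcripts annotated as coding held 48.9 to 60.3% of its TPM in WT and 57.7 and 69.0% in null cells.

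Complex V, the ATP synthase, was led by Atp5c1, the gamma subunit of the rotating central stalk. It was at 76.8, 88.4 and 90.7 scaled TPM in WT and at 142 and 146 in null cells (0.75 ± 0.10, SE, adjusted p = 0.00325), with no overlap. Atp5l, subunit g of the membrane part, was at 88.5, 109.7 and 111 in WT and at 168 and 144 in null cells (0.60 ± 0.13, SE, adjusted p = 0.0197), and without null sample 1 its adjusted p was 0.0963. Its pseudogene Gm10221 matched over 309 bases and was listed at 6.72 to 13.6 TPM. The smallest scaled fold changes among the nuclear genes of complex V belonged to Atp5s, coupling factor B, at 0.03 ± 0.11 (SE), and Atp5j, coupling factor 6, at 0.14 ± 0.11 (SE), with overlapping groups in both. No nuclear gene of complex V passed the test as deposited.

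**Figure D2:**
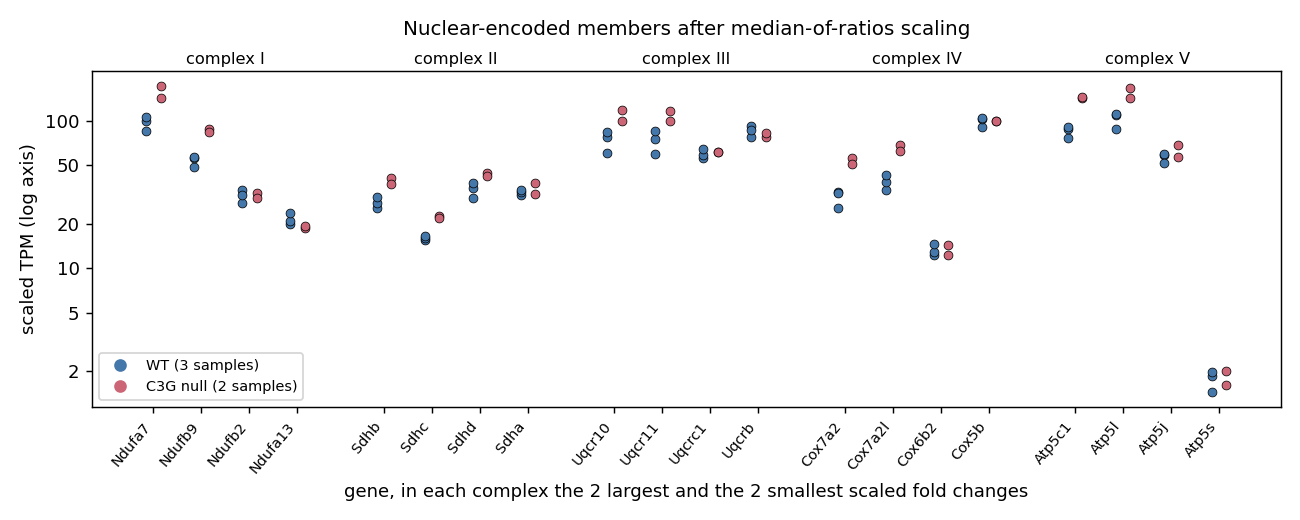
Scaled TPM (log axis) in each of the 3 WT and 2 C3G null samples for the 2 largest and 2 smallest scaled fold changes among the nuclear subunits of each complex. Both null points lie above the WT points for Ndufa7, Ndufb9, Sdhb, Sdhc, Uqcr10, Uqcr11, Cox7a2, Cox7a2l, Atp5c1 and Atp5l, and overlap them for genes such as Ndufb2, Sdha, Cox5b and Atp5j.

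Several oxidase and synthase subunits are encoded by paralogs used in different tissues, and their shares within a sample do not depend on the scaling. The muscle forms Cox6a2 and Cox8b, the lung form Cox4i2 and the testis forms Cox7b2 and Cox8c were all under 1 TPM in every sample and were not tested. Cox6b2, a testis form of subunit VIb, was detected beside the general form Cox6b1. It took 12.5, 12.2 and 12.5% of the summed Cox6b1 and Cox6b2 TPM in WT and 9.05 and 8.78% in null cells. The WT samples agreed within a narrow range and both null samples lay below it, with means of 12.4 ± 0.20% (SD, n = 3) and 8.91 ± 0.19% (SD, n = 2). On each gene alone, Cox6b2 was -0.64 ± 0.26 (SE, adjusted p = 0.0270) as deposited and 0.01 ± 0.10 (SE) after scaling, whereas Cox6b1 was -0.16 ± 0.28 (SE) and 0.54 ± 0.11 (SE, adjusted p = 0.0139 after scaling). The deposited call of Cox6b2 was lost without WT sample 1, 2 or 3, with adjusted p of 0.154, 0.168 and 0.108, and the scaled call of Cox6b1 without WT sample 2 (0.0585) or null sample 1 (0.0681). Part of the Cox6b2 signal lay on transcripts not annotated as coding: coding transcripts held 66.0 to 76.6% of it in WT and 77.0 and 78.8% in null cells.

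The c subunit that forms the rotor ring is made from 3 genes that give the same mature protein. Atp5g1 took 26.4 to 27.2% of their summed TPM in WT and 26.0 and 25.4% in null cells, and Atp5g2 took 39.7 to 41.1% and 42.1 and 41.9%. In both genes the null samples lay just outside the WT range, on opposite sides. Atp5g2 has an identical processed copy, Gm10175, of 645 bases, listed at 13.2 to 16.9 TPM. After scaling all 3 genes were higher, at 0.44 ± 0.12 (SE, adjusted p = 0.0389) for Atp5g1, 0.56 ± 0.13 (0.0239) for Atp5g2 and 0.50 ± 0.11 (0.0207) for Atp5g3. These calls were kept in 1, 2 and 2 of the 5 leave-one-out fits, with adjusted p up to 0.153, 0.104 and 0.0868, each without null sample 1. The other general forms ran as follows. Cox4i1 was at 229, 266 and 289.98 scaled TPM in WT and at 290.4 and 266 in null cells (0.09 ± 0.13, SE, adjusted p = 0.615), with overlapping groups. Cox6a1 was at 102, 115 and 113 in WT and at 151 and 151 in null cells (0.45 ± 0.09, SE, adjusted p = 0.0126). Cox7b was at 55.6, 66.04 and 69.5 in WT and at 90.5 and 85.3 in null cells (0.46 ± 0.11, SE, adjusted p = 0.0256). Null samples were above WT in these last 2 genes, and both calls were lost without WT sample 2, null sample 1 or null sample 2, with adjusted p up to 0.0528 for Cox6a1 and 0.108 for Cox7b. Cox8a was at 123, 145 and 136 in WT and at 173 and 155 in null cells, a difference of 0.28 ± 0.10 (SE) that did not pass (adjusted p = 0.0881). The muscle form Cox7a1 was present at 7.47 to 10.9 TPM in all samples and took 8.21 to 11.1% of the subunit VIIa group with overlapping groups. After scaling it was at 5.60, 8.93 and 7.71 in WT and at 14.4 and 10.2 in null cells, without overlap. That difference of 0.66 ± 0.21 (SE) did not pass (adjusted p = 0.0559). Across the members the share of TPM on coding transcripts had a median of 97.5 to 98.1% in WT and 97.7 and 98.6% in null cells.

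The 13 mitochondria-encoded genes need a caution before their levels are read. Chromosome 1 carries a copy of a stretch of mitochondrial DNA, annotated as pseudogenes on the minus strand between positions 24611535 and 24616197 (GRCm38). Over that stretch 5 genes have a near full-length annotated copy, and for mt-Co2, mt-Co3, mt-Atp6 and mt-Nd4l it differs at 0 bases. mt-Atp8 lies between mt-Co2 and mt-Co3 in the mitochondrial DNA, and no annotated copy of it was found. Whether chromosome 1 carries its sequence was not tested. The 3′ ends of mt-Co2 and mt-Co3 and the first bases of mt-Nd3 are shown with their copies, since the annotated transcripts differ there. Capitals mark bases past the end of the annotated copy, or a base that differs. The chromosome 1 sequence past those ends was not read. The mt-Co2 stretch is chrM:7637-7696 and its copy is chr1:24614885-24614941. The mt-Co3 stretch is chrM:9331-9390 and its copy chr1:24613189-24613247, and for mt-Nd3 the positions are chrM:9459-9518 and chr1:24613060-24613119. The mitochondrial stretches are on the plus strand.
mt-Co2: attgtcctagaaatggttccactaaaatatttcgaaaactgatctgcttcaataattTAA
Gm28661: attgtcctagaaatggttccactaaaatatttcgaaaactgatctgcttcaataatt
mt-Co3: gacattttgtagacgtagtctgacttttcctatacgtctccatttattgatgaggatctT
Gm28437: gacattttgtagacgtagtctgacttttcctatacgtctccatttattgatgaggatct
mt-Nd3: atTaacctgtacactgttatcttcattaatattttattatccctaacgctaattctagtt
Gm28438: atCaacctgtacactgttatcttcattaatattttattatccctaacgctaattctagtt
The annotated copies of mt-Co2 and mt-Co3 end 3 bases and 1 base before the genes do, and are otherwise the same. The annotated copy of mt-Nd3 ends 3 bases short and differs by 1 substitution, T3C, counted from the first base of the gene.

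In the deposited values most of the signal of these genes lay on the copies. mt-Co2, the copper-binding subunit 2 of cytochrome c oxidase, was listed at 0, 21.5 and 30.9 TPM in WT and at 19.0 and 17.8 TPM in null cells, whereas its copy Gm28661 was listed at 3189.7, 3275 and 2839 TPM and at 1922 and 2666 TPM. mt-Co3 was at 122, 49.4 and 161 TPM in WT and at 115 and 109 TPM in null cells, and its copy Gm28437 was at 3837, 4331 and 3924 TPM and at 2687 and 3190 TPM. By comparison mt-Co1, the catalytic subunit of the same enzyme, had 3696, 3768 and 3417 TPM in WT and 2316 and 2957 TPM in null cells on its own gene. With their copies added mt-Co3 was above, and mt-Co2 below, mt-Co1 on its own gene in every sample. The share on the copy was 98.9 to 100% for mt-Co2, 95.9 to 98.9% for mt-Co3, 81.7 to 92.9% for mt-Atp6, 66.0 to 75.4% for mt-Nd4l and 60.6 to 75.2% for mt-Nd3. Reads from the pair cannot be told apart where the sequences are the same. mt-Co1 has a partial copy there, Gm29216, of 492 bases, at 319 to 428 TPM in WT and 98.7 and 169.9 TPM in null cells. With this copy added mt-Co1 was at 4094 TPM in WT sample 1, above mt-Co3 with its copy at 3960 TPM. In the other samples mt-Co3 with its copy stayed above.

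**Figure D3:**
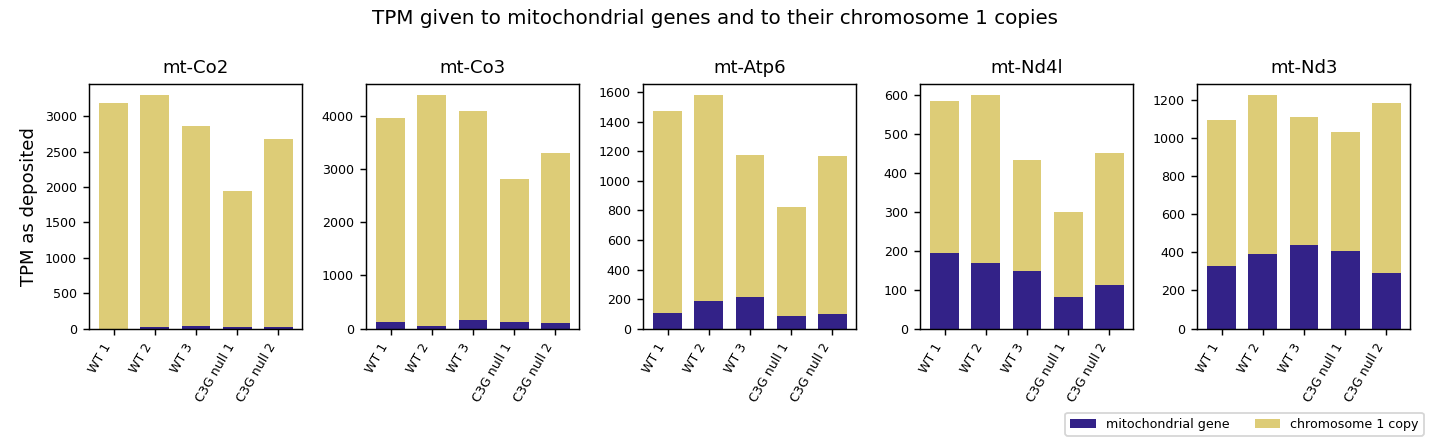
TPM as deposited of 5 mitochondria-encoded genes (dark) stacked with that of their chromosome 1 copies (light), in each WT and C3G null sample; the vertical axis starts at 0 and differs between genes. For mt-Co2 and mt-Co3 nearly the whole bar lies on the copy, as in the first WT sample, where mt-Co2 was listed at 0.

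This bears directly on the 1 member called higher as deposited. The mt-Co2 call (1.11 ± 0.25, SE, adjusted p = 0.000114) came with overlapping groups and rested on the 0 in WT sample 1. Without that sample the log2 fold change was -0.47 (adjusted p = 0.289), and without null sample 1 or 2 the adjusted p was 0.642 and 0.549. After scaling, where the gene's own spread entered the fit, mt-Co2 on its own was 1.65 ± 1.39 (SE, adjusted p = 0.405). With the copy added it was -0.45 ± 0.25 (SE, adjusted p = 0.0986) as deposited and 0.25 ± 0.17 (SE, adjusted p = 0.310) after scaling. mt-Atp6, subunit a of the ATP synthase, was at 105, 189 and 215 TPM in WT and at 86.2 and 98.8 TPM in null cells. It was called lower as deposited on its own (-0.80 ± 0.28, SE, adjusted p = 0.0116) and not with its copy (-0.52 ± 0.26, SE, adjusted p = 0.0724). mt-Nd4l, a complex I subunit, was at 194, 167 and 147 TPM in WT and at 80.3 and 111 TPM in null cells. With its copy it went from -0.83 ± 0.28 (SE, adjusted p = 0.00961) to -0.53 ± 0.27 (SE, adjusted p = 0.0754). Without single samples these 2 calls on the genes alone were also lost, mt-Atp6 in 4 of 5 fits, with adjusted p up to 0.185, and mt-Nd4l in 3, up to 0.149.

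A pair of further mitochondrial genes, both complex I subunits, were called lower as deposited. mt-Nd4 was at 630.5, 597 and 407 TPM in WT and at 252 and 379.9 TPM in null cells (-0.79 ± 0.27, SE, adjusted p = 0.0117), and mt-Nd5 was at 361, 340.45 and 244 TPM in WT and at 156 and 218 TPM in null cells (-0.75 ± 0.28, SE, adjusted p = 0.0175). The null samples were the lowest in both, and WT sample 3 lay nearest to them. Each call was lost without WT sample 1, WT sample 2 or null sample 1, with adjusted p between 0.135 and 0.189. After scaling the groups overlapped and the differences were -0.09 ± 0.15 for mt-Nd4 and -0.05 ± 0.13 for mt-Nd5 (SE). Under quantile normalization both were called lower, at -0.62 and -0.51. mt-Nd4l, on its own gene, was called lower under quantile normalization (-0.47), with nuclear protein-coding TPM set equal (-0.35) and after the length and GC correction (-0.47), and was -0.13 ± 0.08 (SE, adjusted p = 0.278) by median-of-ratios scaling. mt-Nd4 has a partial copy of 876 bases on chromosome 1, Gm28439, which was listed at 0 in every sample.

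Set against mt-Cytb, the cytochrome b gene of complex III, the mitochondrial genes can be compared within a sample without any scaling. No near-identical annotated copy of mt-Cytb was found. Most ratios overlapped between the groups. mt-Nd4 was 0.652, 0.603 and 0.514 per mt-Cytb in WT and 0.461 and 0.508 in null cells, and mt-Nd5 was 0.373, 0.344 and 0.309 in WT and 0.286 and 0.291 in null cells. In these 2 genes the null samples were below WT, by little next to the WT range. mt-Nd4l on its own was 0.2004, 0.169 and 0.185 in WT and 0.147 and 0.148 in null cells, again below WT. With its copy it overlapped, at 0.604, 0.605 and 0.546 against 0.548 and 0.603. mt-Nd3 with its copy was 1.13, 1.24 and 1.40 per mt-Cytb in WT and 1.89 and 1.58 in null cells, and mt-Nd2 was 0.5001, 0.498 and 0.481 against 0.523 and 0.516. The null samples were above WT in both. With its copy mt-Nd3 was the 1 mitochondrial gene that passed the test after scaling (0.65 ± 0.18, SE, adjusted p = 0.0381), and on its own it did not (0.55 ± 0.33, SE, adjusted p = 0.259). As deposited, mt-Nd3 with its copy did not pass (-0.05 ± 0.26, SE, adjusted p = 0.869). The groups overlapped there, at 1094, 1224 and 1110 TPM in WT and 1031 and 1182 TPM in null cells. The gene alone was at 328, 390 and 438 TPM and at 406 and 293 TPM. The fit with copies added was not repeated with samples left out.

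**Figure D4:**
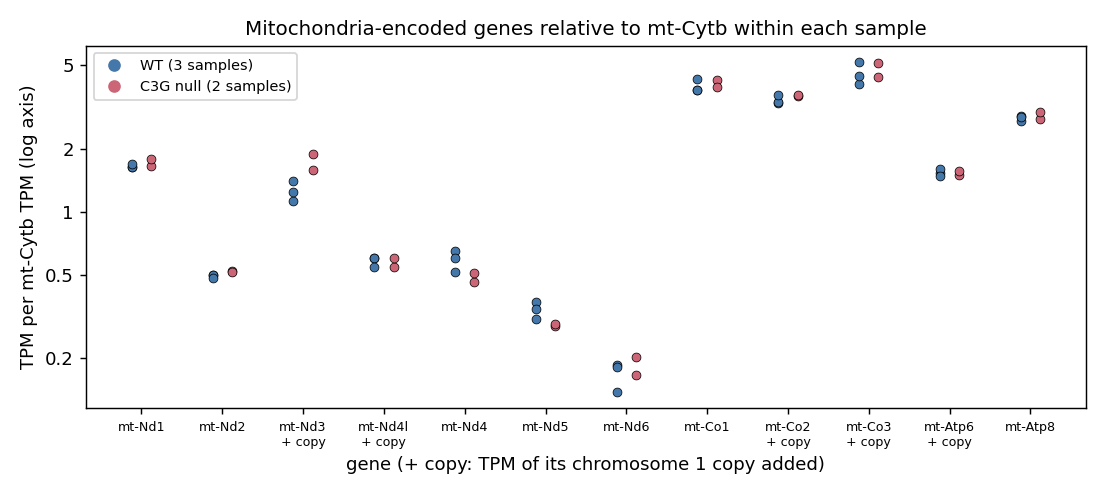
TPM of each mitochondria-encoded gene divided by that of mt-Cytb in the same sample (log axis), with the chromosome 1 copy added where the label says so; blue points are the 3 WT and red points the 2 C3G null samples. The groups overlap for most genes, with both null samples below WT for mt-Nd4 and mt-Nd5 and above WT for mt-Nd2 and mt-Nd3 with its copy.

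The other mitochondrial genes are given as deposited. mt-Nd1, at 1576, 1619 and 1331 TPM in WT and 905.7 and 1331 TPM in null cells, and mt-Nd2, at 484, 493 and 380.4 TPM and 286 and 386 TPM, encode core subunits of complex I. mt-Atp8 was at 2620.5, 2848 and 2247 TPM in WT and at 1523 and 2233 TPM in null cells. mt-Cytb was at 968, 989 and 792 TPM in WT and at 547 and 748 TPM in null cells. mt-Nd1, mt-Co1, mt-Atp8 and mt-Cytb were below all WT samples in both null samples as deposited, with log2 fold changes of -0.51 to -0.45, and above all WT samples after scaling, with 0.19 to 0.25. None of the 4 passed the test on either scale. mt-Nd6, at 180.2, 179.99 and 109 TPM in WT and 90.96 and 152 TPM in null cells, is the only member transcribed from the opposite strand of the mitochondrial DNA. It overlapped between groups on both scales (-0.37 ± 0.28 as deposited and 0.32 ± 0.18 after scaling, SE). Under quantile normalization mt-Co1 and mt-Atp8 were called lower, at -0.75 and -0.66. The ribosomal RNAs mt-Rnr1 and mt-Rnr2 are no members, and relative to the mitochondrial messenger RNAs with their copies they were at 3.27, 2.92 and 2.82 in WT and at 3.57 and 4.24 in null cells, so that both null samples were above WT. Each alone overlapped between groups as deposited and varied widely within them. mt-Rnr1 was at 13176 to 23384 TPM in WT and at 10934 and 24826 TPM in null cells. mt-Rnr2 was at 39282 to 44924 TPM in WT and at 35365 and 48013 TPM in null cells.

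Summed over genes, the nuclear and the mitochondrial sets differed in their share of protein-coding TPM. The nuclear members took 1.91, 2.04 and 2.08% of protein-coding TPM in WT and 2.28 and 2.26% in null cells, with both null samples above WT. The mitochondrial genes took 3.54, 3.72 and 3.45% in WT and 3.65 and 3.47% in null cells, and these overlapped. The ratio of mitochondrial to nuclear TPM was 1.85, 1.82 and 1.66 in WT and 1.60 and 1.54 in null cells, and so lower in both null samples, with means of 1.78 ± 0.10 (SD, n = 3) and 1.57 ± 0.04 (SD, n = 2). The gap between the nearest samples, WT sample 3 and null sample 1, was small next to the spread within WT. With the chromosome 1 copies added the ratio was 3.42, 3.42 and 3.11 in WT and 3.06 and 2.92 in null cells. Within the nuclear sum the complexes kept their places: complex I took 24.0 to 24.5% in WT and 24.1 and 23.4% in null cells, and complex V 37.5 to 38.0% and 38.0 and 38.0%, and none of the 5 complexes separated the groups.

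**Figure D5:**
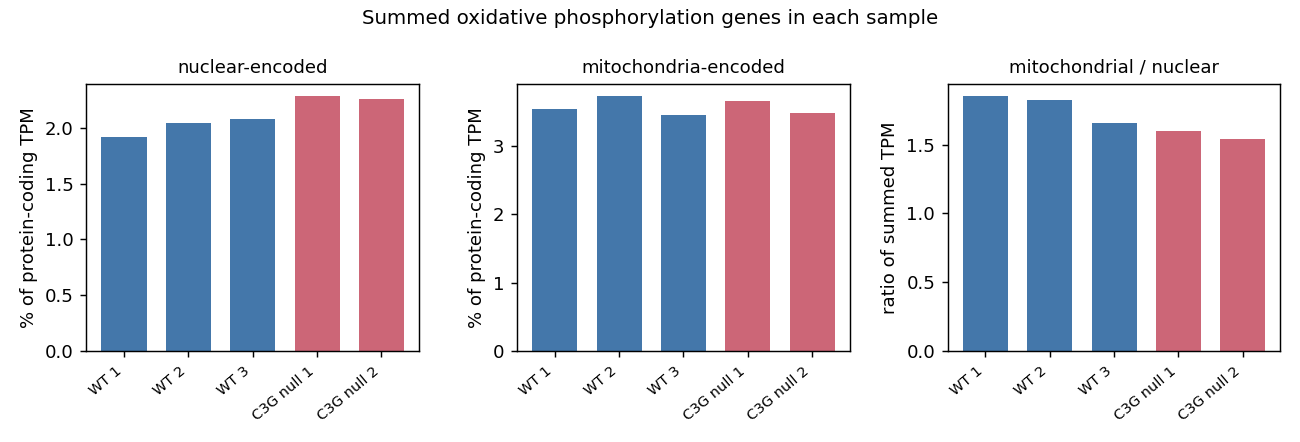
Summed TPM of the nuclear (left) and mitochondria-encoded (middle) genes as a percentage of protein-coding TPM, and the ratio of the mitochondrial to the nuclear sum (right), in each sample, with bars starting at 0. The nuclear share was 2.28 and 2.26% in the null samples and at most 2.08% in WT, and the ratio was at most 1.60 in null cells and at least 1.66 in WT.

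Genes around the respiratory chain were read from lists of related functions, to be set against the 14.1% higher and 16.6% lower of all tested genes after scaling and the 1.45% higher and 56.8% lower as deposited. After scaling, 4 of 15 tested complex I assembly factors were higher and 0 lower, and 3 of 32 assembly factors of complexes II to V were higher and 0 lower, with medians of 0.12 and 0.16. These were 26.7% and 9.38% of the tested genes. As deposited 5 and 7 of them, 33.3% and 21.9%, were lower and 0 higher. Among those that passed, the largest rise after scaling in each list was that of Ndufaf8 (0.60 ± 0.12, SE, adjusted p = 0.0140), which helps to stabilize an assembly factor of complex I, and that of Cmc1 (0.50 ± 0.13, SE, adjusted p = 0.0283), which acts in the assembly of complex IV. The former lost its call without null sample 1 (adjusted p = 0.0744), and the latter without null sample 1 (0.103), WT sample 1 (0.0795) or WT sample 2 (0.0795). Among 4 tested subunits that the name rule does not reach, 1 was higher: Usmg5, a small membrane subunit of the ATP synthase, at 87.8, 106 and 111 scaled TPM in WT and 227 and 166 in null cells (0.93 ± 0.17, SE, adjusted p = 0.00956). It was more than any nuclear member in fold change and did not pass as deposited (0.24, adjusted p = 0.429).

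Of 28 genes for mitochondrial DNA and RNA upkeep, 7 (25.0%) were higher and 1 (3.57%) lower after scaling, and as deposited 9 (32.1%) were lower and 0 higher, against 56.8% lower of all tested genes. Tfb1m, an rRNA methyltransferase of the mitochondrial ribosome, was 3.53, 3.79 and 3.76 scaled TPM in WT and 6.01 and 6.41 in null cells (0.62 ± 0.07, SE, adjusted p = 0.00155). Polg, the catalytic subunit of the mitochondrial DNA polymerase, was lower on both scales (-1.07, adjusted p = 0.000327 as deposited, and -0.42 ± 0.09, SE, adjusted p = 0.0181 after scaling), the second of which was lost without WT sample 1 (0.0531) or null sample 2 (0.0915). Among 7 tested regulators of respiratory genes, 0 were higher and 1 lower after scaling, and as deposited 5 (71.4%) were lower and 0 higher. The scaled call was Pprc1, a coactivator of the PGC-1 family (-0.30 ± 0.08, SE, adjusted p = 0.0388). As deposited it was lower as well (-0.96, adjusted p = 0.00167). Both calls of Pprc1 depended on single samples, with adjusted p up to 0.161 after scaling, without null sample 1, and 0.0704 as deposited, without WT sample 1.

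The citric acid cycle and pyruvate dehydrogenase list had 5 (27.8%) higher and 1 (5.56%) lower of 18 after scaling, against 14.1% and 16.6% of all tested genes, and 5 (27.8%) lower and 0 higher as deposited, against 56.8% lower. Idh3g, a regulatory subunit of isocitrate dehydrogenase, rose by 0.60 ± 0.11 on the log2 scale after scaling (SE, adjusted p = 0.00931). Sucla2, the ATP-forming subunit of succinyl-CoA synthetase, which precedes complex II in the cycle, was at 19.8, 19.8 and 18.1 scaled TPM in WT and at 8.44 and 9.38 in null cells. It was lower on both scales (-1.67, adjusted p = 4.3e-09 as deposited; -1.03 ± 0.08, SE, adjusted p = 0.000511 after scaling) and in every leave-one-out fit, and it lies on chromosome 14, where none of the members does. Of 20 genes for coenzyme Q and electron carriers, 4 (20%) were higher and 1 (5.00%) lower after scaling, and 1 (5.00%) was higher and 11 (55.0%) lower as deposited, the latter near the 56.8% of all tested genes. Cyct, the testis form of cytochrome c, was higher on both scales, from 0.99 to 1.25 scaled TPM in WT to 3.30 and 3.19 in null cells (0.98 ± 0.08, SE, adjusted p = 0.000760), and its deposited call (0.52, adjusted p = 0.0192) was lost without any 1 of the WT samples or null sample 2, with adjusted p up to 0.118. Etfdh, which feeds electrons from fatty acid oxidation to coenzyme Q, was lower on both (-0.95, adjusted p = 0.000553, and -0.37 ± 0.07, SE, adjusted p = 0.0117), in the scaled case not without WT sample 2 (0.0524) or null sample 1 (0.0527). Of 9 carriers, porins and uncoupling proteins, 3 (33.3%) were higher and 1 (11.1%) lower after scaling, and 3 (33.3%) were lower and 0 higher as deposited. Slc25a5, an ADP/ATP carrier, was 0.45 ± 0.11 (SE, adjusted p = 0.0255) after scaling, and in 4 of 5 leave-one-out fits its adjusted p was between 0.0512 and 0.108. Ucp2, an uncoupling protein, was lower as deposited (-1.05, adjusted p = 0.000567) and after scaling (-0.38 ± 0.08, SE, adjusted p = 0.0174), the latter not without WT sample 2 (0.0584) or null sample 2 (0.0671).

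Promoters of the nuclear members were read for 3 motifs of factors known to act on respiratory genes, in windows of 300 bases around the start site from RefSeq (GRCm38.p6), which matched 66 of the 83 genes by symbol. An NRF1 motif, whose letters are those of the match printed last with any base allowed after GCGCA, was found on either strand in 17 of the 66, or 25.8%, against 12.7% of 8561 tested protein-coding genes and 5.19% of all 27025 genes with a window. The ETS core CCGGAAG was found in 24.2%, 22.5% and 9.93% of these sets, and the YY1 motif AAGATGGCG in 10.6%, 4.10% and 1.64%. Matches of different motifs were counted separately where they overlapped. Among the members higher after scaling the NRF1 motif was in 9 of 31, against 8 of 33 that did not pass the test, and the ETS core in 7 of 31 against 9 of 33. A match is a description of the letters in this window and not a bound site. As an example, 1 of the windows of Atp5c1, the member with the largest scaled fold change in complex V, is given. Its other window, chr2:10080461-10080760, had no match to any of the 3 motifs. The window printed is chr2:10080383-10080682 on the minus strand, with the NRF1 match in capitals.
Atp5c1: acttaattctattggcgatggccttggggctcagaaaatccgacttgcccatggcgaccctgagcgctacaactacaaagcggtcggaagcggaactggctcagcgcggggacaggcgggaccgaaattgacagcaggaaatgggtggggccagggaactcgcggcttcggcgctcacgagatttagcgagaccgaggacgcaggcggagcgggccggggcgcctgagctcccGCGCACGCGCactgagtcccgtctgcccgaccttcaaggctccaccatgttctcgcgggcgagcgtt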

How the data were processed

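RNA from 3 WT and 2 C3G null samples was sequenced as paired ends. The submitters' processing notes name STAR 2.5.1b, RSEM 1.2.31 and GRCm38 (mm10), and the study's methods name DESeq2. The authors deposited TPM per transcript in 1 table. Of 142647 transcripts, 141524 were matched to GENCODE M21, and TPM were summed per symbol. Genes with at least 1 TPM in at least 2 samples were tested with limma 3.58.1 (R 4.3.3, mean-variance trend, two-sided) on log2(TPM + 1), once with the deposited TPM and once with TPM divided by median-of-ratios size factors. Fold changes are on that scale, which understates low genes. Since TPM keep no counts, depth is unknown and no interval or floor is given. The fit was tested on simulated data. Copies were found with BLAST+ 2.17.0 (at least 95% identity over at least 100 bases and 80% of the copy). Genes named by rule were, after scaling, the 2 largest and 2 smallest fold changes among nuclear genes of each complex and the largest passing rise and fall of each list, with all mitochondrial genes, the paralog groups and members called alike on both scales, of which there were 0. Alternatives were other pseudocounts, filters, scalings, a length and GC correction, a replicate block and each sample left out. Members and lists were chosen with earlier results of these data known. Adding chromosome 1 copies, and setting members beside other short, abundant genes, was chosen after seeing the data.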

Additional observations from a re-analysis of the deposited data

How the results depend on the processing

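The C3G null over WT value of the mitochondrial to nuclear ratio, 0.883, was 0.855 to 0.902 under its alternatives, and those of the shares of protein-coding TPM, the Cox6b2 share and the coding-transcript share also moved by less than the spread between samples. The levels themselves moved further, the WT mean of the ratio from 1.78 to 3.32 and the mitochondrial share from 3.57 to 6.47% with copies added, and the ratio to 2.04 on coding transcripts, 1.31 without mt-Nd6, mt-Nd4l and mt-Atp8, and 7.39 for medians. As deposited, without the filter on low values 0 members were higher and 0 lower, without the trend 8 were lower, and with the chromosome 1 copies added 0 were higher. Leaving out 1 sample gave 0 to 1 higher and 0 to 69 lower members as deposited, with a median of -0.59 to -0.10, and 10 to 40 higher after scaling. With 1 null sample left, that sample is assumed to vary like WT.

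After scaling, 14 members were higher without the filter, beside 1212 of the 33039 genes then tested. With 1 WT sample left out, 891 to 1536 of all 12518 tested genes were higher. Quantile normalization gave 15 higher, 8 lower and a median of 0.15, scaling to nuclear protein-coding TPM 19 higher, 3 lower and 0.13, and the length and GC correction 2 lower and 0.22. mt-Co2 as deposited ran from -0.47 to 2.03 with 1 sample left out, turning without WT sample 1, and was -0.45 with its copy. After scaling, quantile normalization turned Cox4i1 (-0.38), Cox5b (-0.30), mt-Atp8 (-0.66) and mt-Co1 (-0.75), and the length and GC correction turned Cox6b2 (-0.27). The cause was not tested.

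The replicate numbers 1 and 2 occur in both groups, and nothing says that they mark a shared day or batch. Deviations of same-numbered samples correlated at -0.18 and 0.18. With the replicate block, 0 members were lower and 1 higher as deposited, and 41 were higher after scaling, 36 of them among the 38. The replicate block with the length and GC correction gave 18 higher and 1 lower. Over all tested genes the replicate block gave 69 higher and 1023 lower as deposited against 181 and 7109 without it, and 1489 and 1816 after scaling against 1760 and 2083. Over all genes as deposited, counts of lower genes were 2111 without the filter, 4098 at 5 TPM, 4486 without the trend, and 2132 to 10226 with 1 sample left out.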
